A study of Mus musculus with 24 samples.

Results

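A set of 10 receptors of the tumour necrosis factor (TNF) receptor superfamily that are known on T cells were followed in splenic regulatory T (Treg) cells: the genes Tnfrsf1a, Tnfrsf1b, Tnfrsf4, Tnfrsf8, Tnfrsf9, Tnfrsf14, Tnfrsf18, Tnfrsf25, Cd27 and Fas. The set was chosen with earlier results of these data known and defined by gene symbol. All 10 were found by their Ensembl identifiers among the 17464 genes of the expression table. All 10 also passed the filter on low values (a normalized read count of at least 10 in at least 4 libraries), as did 16630 genes in all. Most differences were seen in KLRG1+ Treg (kTreg) cells, in which 5 of the 10 receptor genes stood higher than in activated Treg (aTreg) cells and also higher than in resting Treg (rTreg) cells.

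The 24 libraries came from the spleens of wild-type C57BL/6JRccHsd mice, 4 young (2 months old) and 4 old (26 months old). From these mice, rTreg cells were sorted as CD62L+ CD44-, aTreg cells as CD62L- CD44+ and kTreg cells by KLRG1, a surface receptor of differentiated lymphocytes. Each of the 6 groups held 4 libraries, one per mouse. The sample titles gave only a number, which was taken to name the same mouse in the 3 subsets of one age. No mouse carried a transgene or received a treatment, so the groups differed in the sorted surface proteins and in age, and the labels gave neither the number of cells nor the sex behind a library. In such bulk samples, a change in the share of expressing cells and a change in RNA per cell cannot be told apart.

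TNF receptors are trimeric surface proteins that bind trimeric ligands of the TNF family and pass the signal on through adaptor proteins inside the cell. Some of them, among them TNFR1 (encoded by Tnfrsf1a), FAS and DR3 (Tnfrsf25), carry a death domain and can lead to caspase activation. The others, among them TNFR2 (Tnfrsf1b), OX40 (Tnfrsf4), CD30 (Tnfrsf8), the co-stimulatory receptor of Tnfrsf9, GITR (Tnfrsf18), HVEM (Tnfrsf14) and CD27, bind TRAF adaptors and feed into NF-kappaB signalling. TNFR2, OX40 and GITR are known for their high expression on Treg cells and for their part in Treg expansion and survival.

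The libraries held between 15045747 and 29521942 reads on listed genes, and 1 read was worth between 0.6938 and 1.3183 units of normalized read count. Klrg1 was listed between 16559 and 41561 in the 8 kTreg libraries and at most at 357 in the others, and Foxp3, the defining Treg transcription factor, was present in every library. One library, old aTreg replicate 2, had a Foxp3 value of 5079, against 16925 to 19813 in the other old aTreg libraries, and another, young kTreg replicate 4, had 4913 genes at 0, against at most 2756 elsewhere. Markers of other cells also differed: the summed values of 6 macrophage and monocyte genes ran from 10211 to 26453 in the old rTreg libraries, from 1989 to 3056 in old kTreg, from 228 to 334 in old aTreg, and from 0 to 22350 in the young libraries, where the highest value in each subset belonged to mouse 2. None of these 6 genes was at 0 in all 4 libraries of a group. Their part in the results was not tested.

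Of the 10 receptor genes, 7, namely Tnfrsf1b, Tnfrsf8, Tnfrsf9, Tnfrsf25, Tnfrsf14, Tnfrsf4 and Tnfrsf18 in this order, lay within 11.2 Mb of chromosome 4 (144938938 to 156113352, build GRCm39, GENCODE M39 annotation). Tnfrsf1b (144938938 to 144973477, minus strand) and Tnfrsf8 (144993707 to 145041734, minus strand) were separated by 20.2 kb, and Tnfrsf4 (156098293 to 156101069, plus strand) and Tnfrsf18 (156110621 to 156113352, plus strand) by 9.6 kb. Between these pairs lay Tnfrsf9 (150999019 to 151030559, plus strand), Tnfrsf25 (152200391 to 152205299, plus strand) and Tnfrsf14 (155005126 to 155013020, minus strand). Cd27 (125209585 to 125213988, minus strand) and Tnfrsf1a (125325566 to 125339632, plus strand) were neighbours on chromosome 6, 111.6 kb apart, and Fas lay on chromosome 19 (34268001 to 34305173, plus strand). Of the other 134 genes tested inside the chromosome 4 interval, 5 (3.73%) were higher and 5 were lower in kTreg than in aTreg libraries.

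The sequences upstream of the genes that differed are given here because several of these genes moved together and NF-kappaB and AP-1 are transcription factors that act downstream of this receptor family. For all 10 receptors, 12 RefSeq promoters were found (GRCm38.p6), and the 250 bases before each start were placed on GRCm39 by exact match. They were searched on both strands for the kappaB consensus, the binding motif of NF-kappaB, and for the AP-1 motif TGANTCA, 2 patterns that do not share a match here, and stretches inside exons of protein-coding genes were left out of the print, except for the Tnfrsf9 site, whose 30 bases lie within annotated exon sequence and are given for the match. Capitals mark matches, and each sequence runs 5′ to 3′ on the strand of its gene.
Tnfrsf8, chr4:145041735-145041984, minus strand: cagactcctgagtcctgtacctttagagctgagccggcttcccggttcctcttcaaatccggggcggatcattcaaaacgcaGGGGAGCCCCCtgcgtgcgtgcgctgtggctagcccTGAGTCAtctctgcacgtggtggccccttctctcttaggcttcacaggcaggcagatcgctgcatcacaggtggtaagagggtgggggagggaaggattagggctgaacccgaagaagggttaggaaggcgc
Tnfrsf9, second start, chr4:151012403-151012432, plus strand: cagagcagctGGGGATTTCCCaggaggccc
Tnfrsf1b, chr4:144973478-144973690, minus strand: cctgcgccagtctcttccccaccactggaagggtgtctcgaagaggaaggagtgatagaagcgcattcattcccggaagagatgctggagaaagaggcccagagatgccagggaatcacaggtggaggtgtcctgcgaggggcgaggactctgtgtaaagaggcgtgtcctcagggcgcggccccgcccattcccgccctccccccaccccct
Tnfrsf4, chr4:156098068-156098151, plus strand: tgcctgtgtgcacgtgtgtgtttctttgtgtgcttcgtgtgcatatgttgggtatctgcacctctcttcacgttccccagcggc
Tnfrsf18, chr4:156110529-156110620, plus strand: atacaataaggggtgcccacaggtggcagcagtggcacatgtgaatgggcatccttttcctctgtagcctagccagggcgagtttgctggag
Fas, chr19:34267809-34268000, plus strand: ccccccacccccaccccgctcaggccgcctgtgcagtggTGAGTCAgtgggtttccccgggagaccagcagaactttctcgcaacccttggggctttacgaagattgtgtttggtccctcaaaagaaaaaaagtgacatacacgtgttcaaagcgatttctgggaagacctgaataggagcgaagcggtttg

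The kappaB consensus was matched 158 to 168 bases upstream of the Tnfrsf8 start, 33 to 43 bases upstream of the second Tnfrsf9 start and 19 to 28 bases upstream of the second Tnfrsf25 start. An AP-1 match lay 126 to 132 bases upstream in Tnfrsf8, 9 to 15 bases upstream at the second Tnfrsf9 start and 205 to 211 bases upstream in Fas. Among all 32851 RefSeq promoters of this length, 7.25% held the kappaB consensus, 6.75% the AP-1 motif and 0.356% both. The whole windows of Tnfrsf1b, Tnfrsf4, Tnfrsf18, Tnfrsf14, Tnfrsf1a, Cd27 and the first starts of Tnfrsf9 and Tnfrsf25 held neither motif. A match is a match of letters and was not tested for binding.

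**Figure D1:**
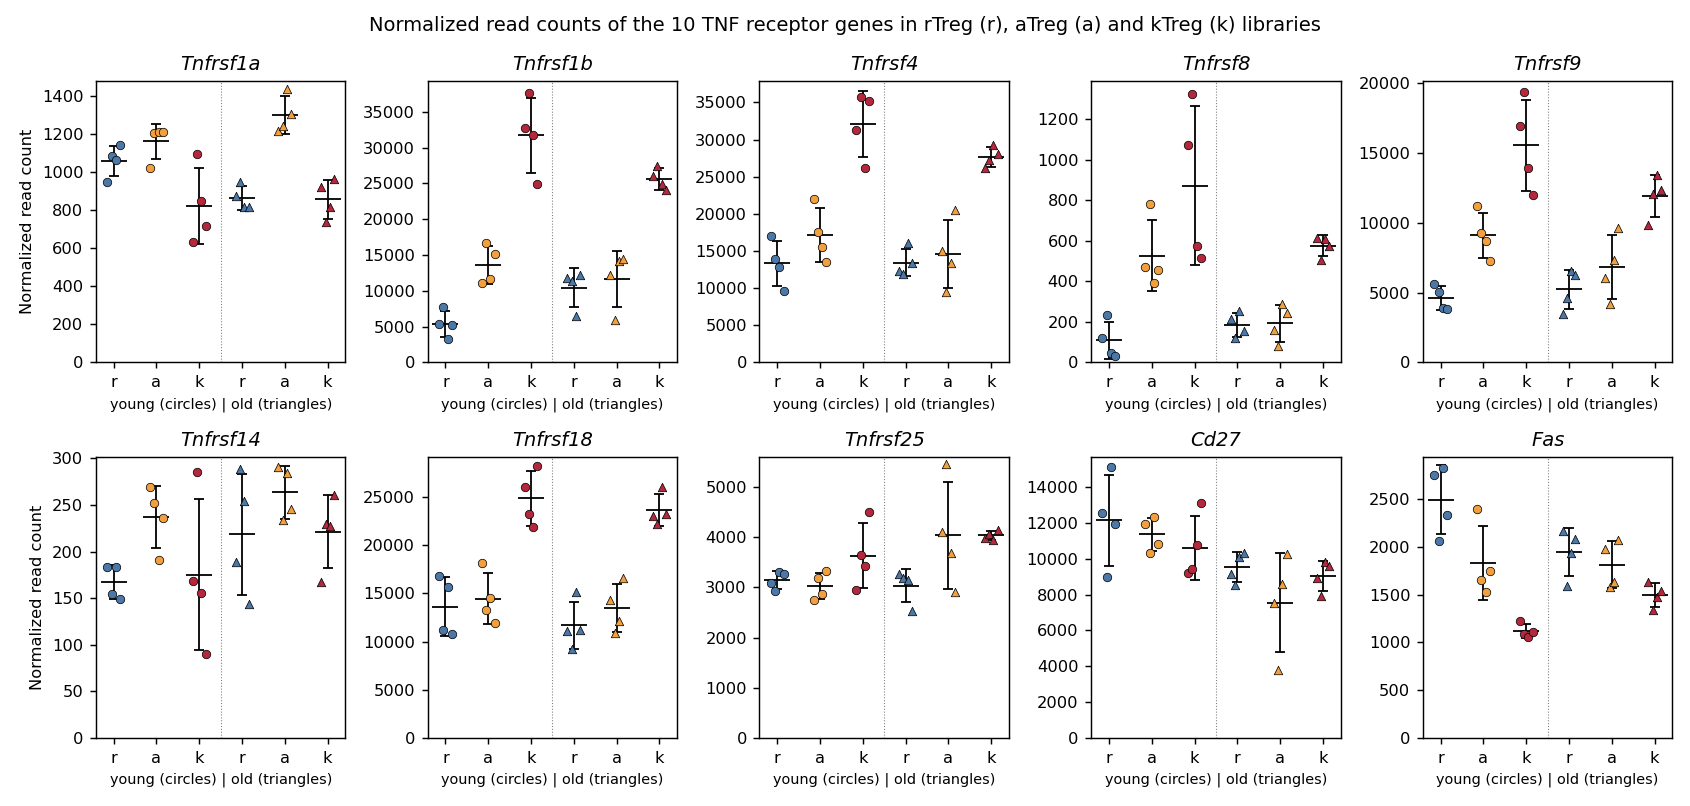
Normalized read counts (y axis, linear from 0) of the 10 TNF receptor genes in resting (r), activated (a) and KLRG1+ (k) Treg libraries of young (circles) and old (triangles) mice, with the mean and SD of the 4 libraries of each group. For Tnfrsf1b, Tnfrsf4 and Tnfrsf18 every kTreg library lies above every aTreg and rTreg library, whereas Fas is lowest in the young kTreg libraries.

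To see which receptors had the highest messenger RNA levels, values were divided by exon length. Per kilobase, Tnfrsf4 and Tnfrsf18 ranked first and second in all 6 groups, although their ranges overlapped everywhere except in kTreg cells of either age. In young rTreg libraries, the level per kilobase was 9743 ± 2211 (SD, n = 4) for Tnfrsf4 and 8940 ± 2014 for Tnfrsf18, followed by 5183 ± 1081 for Cd27. The lowest levels belonged to Tnfrsf8 and Tnfrsf14, with group means of at most 252 normalized reads per kilobase. The order in the middle changed with the subset: Tnfrsf1b had rank 5 in young rTreg (1090 ± 368) and rank 3 in young kTreg (6411 ± 1055), whereas Cd27 had rank 3 in young rTreg and rank 5 in young kTreg (4533 ± 763). In young kTreg libraries, the ranges of Tnfrsf1b and Tnfrsf9 overlapped, and so did those of Tnfrsf9 and Cd27, so these neighbours did not differ beyond their spread. Summed over the 10 genes, the level per kilobase was 29198 ± 4512 in young rTreg, 35325 ± 4806 in young aTreg and 58633 ± 4938 in young kTreg libraries. In old mice, the sums were 27802 ± 3187, 30255 ± 7272 and 51592 ± 2506, so that no kTreg library of either age overlapped with the aTreg or rTreg libraries.

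The comparison of kTreg with aTreg cells sets 2 antigen-experienced subsets against each other and was made over both ages, with limma on log2(normalized read count + 1). Genes were called at an adjusted p under 0.05 and a difference of more than 1.5-fold. Of the 10 receptor genes, 5 were higher in kTreg cells (Tnfrsf1b, Tnfrsf4, Tnfrsf8, Tnfrsf9 and Tnfrsf18) and none was lower, whereas 4.13% of all genes tested were higher and 3.26% were lower. Because the receptors were chosen with earlier results of these data known, these counts are not an unbiased measure against the background. The median log2 difference of the 10 was 0.48, beside −0.08 over all genes. Other marker genes moved with this comparison, and their part in it was not tested. The summed values of 6 Treg-defining genes were 91287 to 110382 in young kTreg against 77752 to 86588 in young aTreg libraries and 91546 to 102637 against 47593 to 76513 in old mice, with Foxp3, Ctla4 and Ikzf2 called higher and none lower. The sums of 4 plasma cell genes were 3095 to 3822 against 807 to 1216 in young and 3570 to 4199 against 728 to 2156 in old mice. Of these 4, only Prdm1, a transcription factor gene that differentiated T cells also express, was called (1.62 ± 0.26 on the log2 scale). All 6 macrophage and monocyte genes lay above 0, with a median log2 difference of 3.00, and 1 was called higher. Their sums were 1989 to 3056 in old kTreg against 228 to 334 in old aTreg libraries. In young mice they overlapped, at 0 to 22350 against 53.7 to 2952. Against rTreg cells, the same 5 receptor genes were higher in kTreg cells and Fas was lower (background 9.37% higher and 6.09% lower). Between aTreg and rTreg cells, Tnfrsf1b, Tnfrsf8 and Tnfrsf9 were higher in aTreg cells and none was lower (background 5.23% higher and 2.78% lower). Marker genes differed from rTreg cells too. All 4 basophil and mast cell genes were called lower in kTreg and in aTreg cells, with median log2 differences of −4.01 and −5.28. The macrophage and monocyte medians were −0.49 in kTreg (0 called) and −2.92 in aTreg cells (2 called lower). Their part in these comparisons was not tested. At an unadjusted p under 0.05, 7, 7 and 5 of the 10 genes differed in the 3 comparisons. The shares above are of genes called and do not apply to these counts. For genes called, edgeR and DESeq2 on the recovered reads gave the same numbers of receptor genes higher and lower. All 8 kTreg libraries lay above all 8 aTreg libraries for 3 of the 10 (background 2.81% in either direction) and above all 8 rTreg libraries for 5 (background 3.98%), while aTreg and rTreg libraries overlapped for every one (background 0.848%). These 3 comparisons share their libraries in pairs and are not independent.

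**Figure D2:**
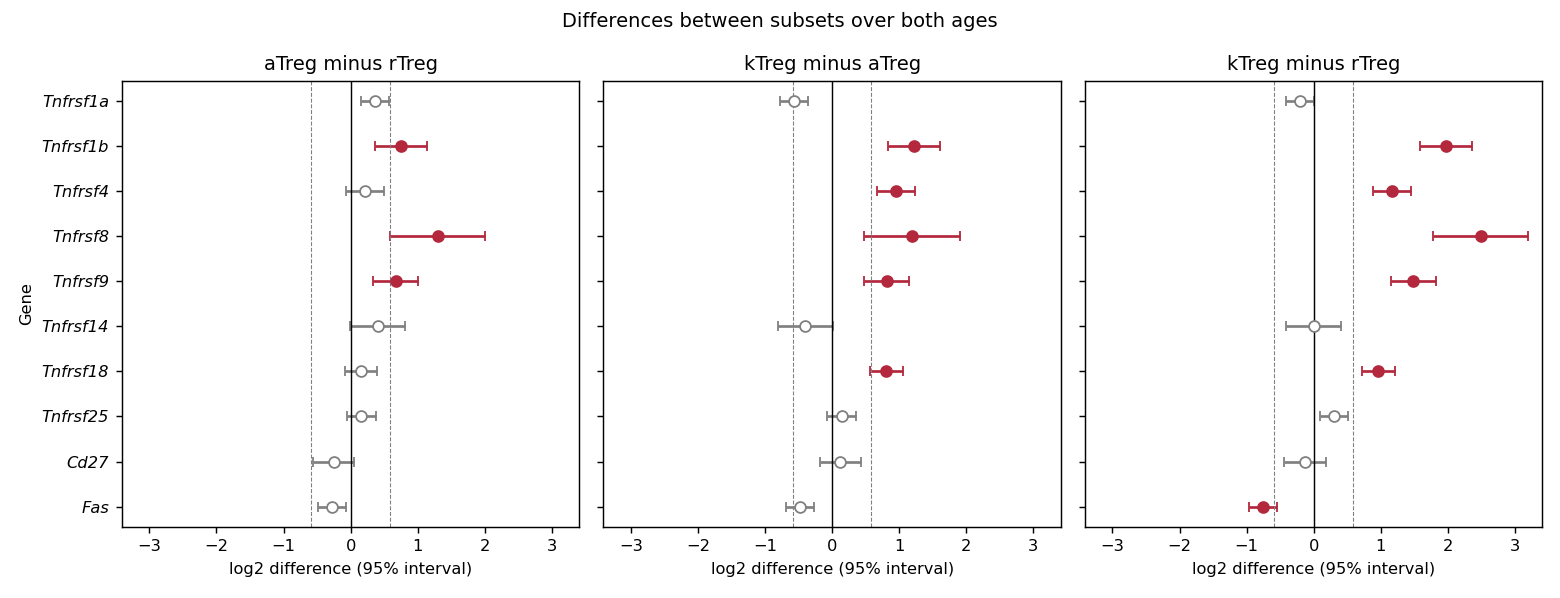
Log2 differences (x axis) of the 10 receptor genes between subsets over both ages, with 95% intervals from limma; red points were called and dashed lines mark the 1.5-fold limits. The 5 red points to the right of 0 in the kTreg panels are Tnfrsf1b, Tnfrsf4, Tnfrsf8, Tnfrsf9 and Tnfrsf18, and Fas is the only red point to the left, in kTreg minus rTreg.

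Tnfrsf1b, the gene of TNFR2, rose from rTreg to aTreg to kTreg cells over both ages. Its normalized read counts were 5347, 7732, 3276 and 5234 in the young rTreg libraries of mice 1 to 4, 11090, 16673, 11595 and 15070 in young aTreg and 32694, 37578, 31775 and 24892 in young kTreg. In old mice, it stood at 11774, 11337, 6484 and 12210 in rTreg, 12134, 5912, 14177 and 14387 in aTreg and 26052, 27490, 24858 and 24070 in kTreg. The 3 subsets did not overlap in young mice, whereas in old mice only kTreg cells stood apart. The log2 difference was 1.22 ± 0.19 (SE) between kTreg and aTreg (2.33-fold, adjusted p = 1.35e-04, limma) and 1.97 ± 0.19 between kTreg and rTreg (3.92-fold, adjusted p = 7.32e-08, limma). Between aTreg and rTreg it was 0.75 ± 0.19 (adjusted p = 0.0101, limma), made up of 1.38 in young and 0.12 in old mice.

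Tnfrsf4 and Tnfrsf18, the genes of the co-stimulatory receptors OX40 and GITR, differed between kTreg cells and both other subsets but hardly between aTreg and rTreg cells. Tnfrsf4 stood at 17022, 13936, 12835 and 9675 in young rTreg, 22038, 17489, 15554 and 13528 in young aTreg and 31321, 35692, 26167 and 35258 in young kTreg libraries. In old mice, the Tnfrsf4 values were 12265, 11958, 16064 and 13447 in rTreg, 15020, 9419, 13381 and 20568 in aTreg and 26139, 27191, 29314 and 28106 in kTreg. All 8 kTreg libraries exceeded all 16 others, and the log2 difference was 0.95 ± 0.14 to aTreg (adjusted p = 7.90e-05, limma) and 1.17 ± 0.14 to rTreg (adjusted p = 1.43e-06, limma). Tnfrsf18 ranged from 10796 to 16840 in young rTreg, from 11888 to 18113 in young aTreg and from 21855 to 28207 in young kTreg libraries. The old ranges of Tnfrsf18 were 9217 to 15121, 10905 to 16562 and 22225 to 26014 in the same order, again without overlap between kTreg and the rest. Its log2 difference was 0.81 ± 0.12 to aTreg (1.75-fold, adjusted p = 9.03e-05, limma) and 0.96 ± 0.12 to rTreg (adjusted p = 2.69e-06, limma). Between aTreg and rTreg, the differences were 0.22 ± 0.14 for Tnfrsf4 and 0.15 ± 0.12 for Tnfrsf18 (adjusted p = 0.384 and 0.510, limma). Of the exon bases of Tnfrsf18, 35.9% were shared with the antisense gene Gm16008. The counting is not stated to have used strand, so how reads over these bases were counted is not known. Their effect on the Tnfrsf18 values, also per kilobase, was not tested.

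The ratio of Tnfrsf4 to Tnfrsf18 per kilobase, a value formed within each library, ranged from 0.911 to 1.70 over the 24 libraries. Over the 8 mice, it was higher in kTreg than in aTreg libraries in 6 and higher in kTreg than in rTreg libraries in 7, and the exact sign-flip permutation test gave an adjusted p of 0.0586 for either (two-sided, 6 tests in the family). Among all genes tested, the one most like Tnfrsf4 over the 24 libraries was Tnfrsf18 (Pearson r = 0.946 on the log2 scale), followed by Ccrl2 (0.930). This likeness describes libraries that share mice and subsets and carries no test.

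Tnfrsf9, a co-stimulatory receptor gene induced by T cell activation, rose from rTreg to aTreg to kTreg over both ages together. It stood at 5603, 5034, 3913 and 3853 in young rTreg, 11208, 9237, 8688 and 7269 in young aTreg and 16967, 19368, 13932 and 11973 in young kTreg libraries, without overlap. In old mice, it stood at 3487, 4646, 6527 and 6250 in rTreg, 6067, 4167, 7342 and 9659 in aTreg and 9838, 12050, 13396 and 12332 in kTreg, and only the first 2 subsets overlapped. The log2 difference was 0.81 ± 0.16 between kTreg and aTreg (adjusted p = 0.00164, limma), 1.49 ± 0.16 between kTreg and rTreg (adjusted p = 4.82e-07, limma) and 0.67 ± 0.16 between aTreg and rTreg (adjusted p = 0.00744, limma). The last of these was made up of 0.99 in young and 0.36 in old mice. This difference over both ages fell just under the 1.5-fold limit without old rTreg replicate 1 or without old aTreg replicate 4 (0.58 in both).

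Tnfrsf8, the gene of CD30, was the least abundant of the genes called and the most variable. Its values were 120, 235, 46 and 32 in young rTreg, 471, 784, 393 and 456 in young aTreg and 1075, 1323, 575 and 515 in young kTreg libraries. In old mice, they were 212, 121, 255 and 155 in rTreg, 159, 82, 286 and 242 in aTreg and 616, 503, 610 and 575 in kTreg. Within every mouse, the kTreg library exceeded the aTreg library, although the groups overlapped in young mice. The log2 difference was 1.19 ± 0.34 between kTreg and aTreg (adjusted p = 0.0247, limma), 2.49 ± 0.34 between kTreg and rTreg (adjusted p = 1.25e-05, limma) and 1.30 ± 0.34 between aTreg and rTreg (adjusted p = 0.0156, limma). The first of these lost its call without young aTreg replicate 3 (adjusted p = 0.0535), young kTreg replicate 2 (0.0525) or old aTreg replicate 2 (0.0629), and without the 3 libraries of old mouse 2 (0.0876), in a range of 0.00504 to 0.0876 over 40 alternatives. The gene most like Tnfrsf8 over the 24 libraries was Cd83 (r = 0.904), which was also the gene most like Tnfrsf9 (r = 0.947).

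Fas, a death receptor gene, moved in the opposite direction. It stood at 2747, 2059, 2826 and 2336 in young rTreg, 2400, 1653, 1528 and 1750 in young aTreg and 1223, 1090, 1055 and 1114 in young kTreg libraries. In old mice, it stood at 2163, 1590, 1938 and 2079 in rTreg, 1979, 1577, 1631 and 2067 in aTreg and 1633, 1337, 1474 and 1537 in kTreg. Young kTreg libraries lay below all other young libraries, and in old mice the subsets overlapped. Fas fell by 0.76 on the log2 scale from rTreg to kTreg (SE 0.10, 1.69-fold, adjusted p = 7.81e-06, limma). From aTreg to kTreg, the difference of −0.48 ± 0.10 passed the p threshold (adjusted p = 0.00263, limma) but not the 1.5-fold limit, and it had the same sign in 8 of 8 mice.

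Tnfrsf1a, the gene of TNFR1, ranged from 632 to 1439 over all 24 libraries and was lower in kTreg than in aTreg cells in every mouse. Its log2 difference was −0.56 ± 0.10 (1.48-fold lower, adjusted p = 6.31e-04, limma), just inside the fold limit, and it passed this limit without young aTreg replicate 1 (−0.59), young kTreg replicate 2 (−0.64), old kTreg replicate 4 (−0.59) or all libraries of young mouse 2 (−0.63). Tnfrsf1a stood 0.36 ± 0.10 higher in aTreg than in rTreg cells on the log2 scale (adjusted p = 0.0202, limma), again under the fold limit.

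The balance of the 2 receptors for TNF was formed within each library, per kilobase, from Tnfrsf1b and Tnfrsf1a. The ratio was 3.58, 4.53, 1.96 and 2.92 in young rTreg, 6.88, 8.80, 6.09 and 7.91 in young aTreg and 21.9 to 32.9 in young kTreg libraries. In old mice, it was 8.57, 7.58, 5.06 and 9.52 in rTreg, 6.34, 3.02, 6.27 and 7.01 in aTreg and 15.9 to 23.8 in kTreg. The kTreg ratios lay above all others, on average 3.45 times those of aTreg and 4.51 times those of rTreg from the same mouse. The exact sign-flip permutation test over the 8 mice gave p = 0.00781 for either (two-sided, adjusted p = 0.0234 over 6 tests), the smallest p that 8 mice allow, and p = 0.328 for aTreg against rTreg. The genes of this ratio had been tested one by one above, so it is no independent evidence.

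**Figure D3:**
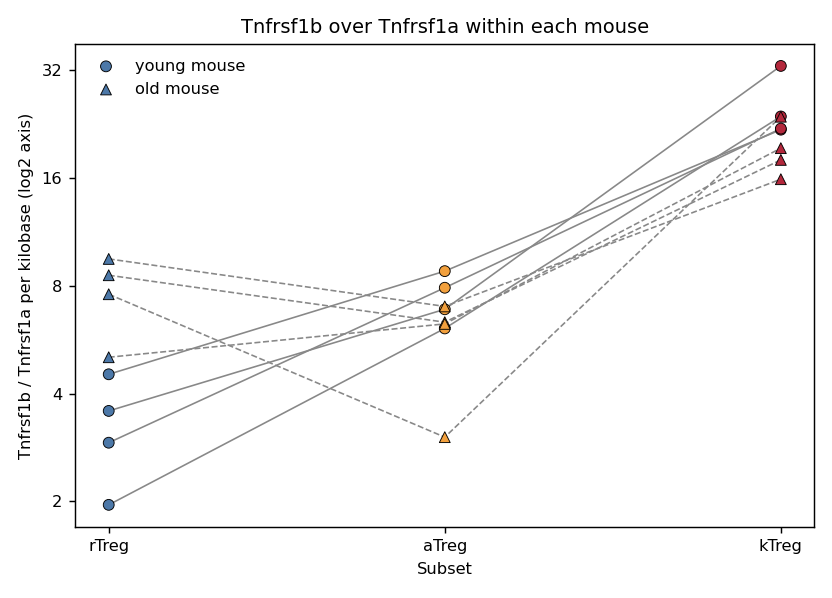
Ratio of Tnfrsf1b to Tnfrsf1a normalized read counts per kilobase (y axis, log2-spaced) in the 3 subsets (x axis), with lines joining the libraries of one mouse (circles and solid lines young, triangles and dashed lines old). Every line ends highest in kTreg, at ratios between 15.9 and 32.9, and the lowest aTreg point, at 3.02, is old replicate 2.

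Like Tnfrsf1a, the remaining 3 genes were not called between subsets. Cd27, a co-stimulatory receptor gene of naive and memory T cells, ranged from 3808 to 15124, with log2 differences of 0.12 ± 0.15 (kTreg to aTreg), −0.13 ± 0.15 (kTreg to rTreg) and −0.25 ± 0.15 (aTreg to rTreg). The 95% interval of its kTreg to aTreg difference, −0.19 to 0.43, left out a 1.5-fold change. Tnfrsf25, the gene of DR3, ranged from 2538 to 5453 and stood 0.30 ± 0.10 higher in kTreg than in rTreg cells (adjusted p = 0.0361, limma), under the fold limit. Tnfrsf14, the gene of HVEM, had values between 91 and 291, with a difference of −0.40 ± 0.20 from aTreg to kTreg (adjusted p = 0.214, limma) and of 0.40 ± 0.20 from rTreg to aTreg (adjusted p = 0.242, limma). The 95% interval of the first, −0.81 to 0.01, included a fall of more than 1.5-fold. Tnfrsf25 shared 17.1% of its exon bases with Espn on the opposite strand, and none of the genes tested reached a correlation of 0.8 with it.

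The other members of the pathway were taken from lists of TNF ligands, further TNF receptors, adaptors and NF-kappaB genes. These lists too were chosen with earlier results of these data known, so their counts are not an unbiased measure against the background. Of 14 TNF superfamily ligand genes tested, 8 were higher and 0 lower in aTreg than in rTreg cells (background 5.23% higher and 2.78% lower). Their median log2 difference was 1.23 beside 0.06 over all genes. Between kTreg and aTreg cells, 1 ligand gene was higher and 6 were lower, with a median of −0.90 beside −0.08 (background 4.13% higher and 3.26% lower). Markers of natural killer cells also differed here: 4 such genes summed to 333 to 686 in young kTreg against 946 to 1131 in young aTreg libraries and to 534 to 1319 against 1812 to 4037 in old mice, with Klrb1c and Klrk1 lower and Ncr1 higher. Their part in the ligand values was not tested. Between kTreg and rTreg cells, 4 ligand genes were higher and 2 lower (background 9.37% and 6.09%). The 8 genes higher in aTreg than rTreg numbered 5 by edgeR and 7 by DESeq2, and 6 by limma without the libraries of young mouse 2, and none of these called one lower.

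The 3 ligand genes with the smallest p between kTreg and aTreg were Lta, Tnfsf8 and Tnf. Lta, the gene of lymphotoxin alpha, which binds both TNF receptors, had values of 3744, 3146, 3463 and 3166 in young aTreg and 949, 914, 773 and 1569 in young kTreg libraries, and fell by 1.441 ± 0.136 on the log2 scale over both ages. Tnfsf8, which encodes the ligand of CD30, was 2616, 1778, 2019 and 2048 in young aTreg and 348, 397, 304 and 445 in young kTreg libraries. In old mice, Tnfsf8 stood at 3683, 4540, 3488 and 3934 in aTreg and 2521, 1138, 645 and 2026 in kTreg libraries, without overlap at either age, and it fell by 1.991 ± 0.230. Tnf itself ranged from 1328 to 1836 in young aTreg and from 688 to 1030 in young kTreg, and fell by 0.70 ± 0.10. It was higher in aTreg than in rTreg cells by 0.81 ± 0.10 on the log2 scale.

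Of 13 other TNF receptor genes tested, 2 were higher and 1 lower in kTreg than in aTreg cells, beside 4.13% and 3.26% of all genes. Tnfrsf26 fell by 0.98 ± 0.13, and Tnfrsf13b, the gene of TACI, rose by 0.87 ± 0.15. Tnfrsf10b, the TRAIL receptor gene, rose by 0.85 ± 0.20 at values of only 49 to 185. Of 14 TRAF and death adaptor genes, none was called between kTreg and aTreg by limma, edgeR or DESeq2. An unadjusted p under 0.05 was reached by 4, a threshold to which the shares of genes called do not apply. Of these 14 adaptors, which pass on the signal of the receptors, 11 lay above 0, with a median of 0.20 beside −0.08 over all genes, and at the background of 4.13% higher and 3.26% lower a count of 0 is no result about them. Between kTreg and rTreg, Traf4 fell by 0.64 ± 0.16 and no other adaptor was called (background 9.37% higher and 6.09% lower). At that background, the Traf4 call is no result about the adaptors as a list. This call was not made by limma without young kTreg replicate 4 and old aTreg replicate 2 together, where 1 adaptor was higher and none lower. Of 18 NF-kappaB signalling genes, 2 rose from aTreg to kTreg. They were Nfkbiz, which encodes an atypical protein of the IkappaB family, by 1.03 ± 0.17, and Tnfaip3, the gene of A20, by 0.83 ± 0.20. Against rTreg cells, 3 of the 18 were higher and none was lower. The background was 4.13% higher for the first comparison and 9.37% for the second, so both counts rest on few genes.

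**Figure D4:**
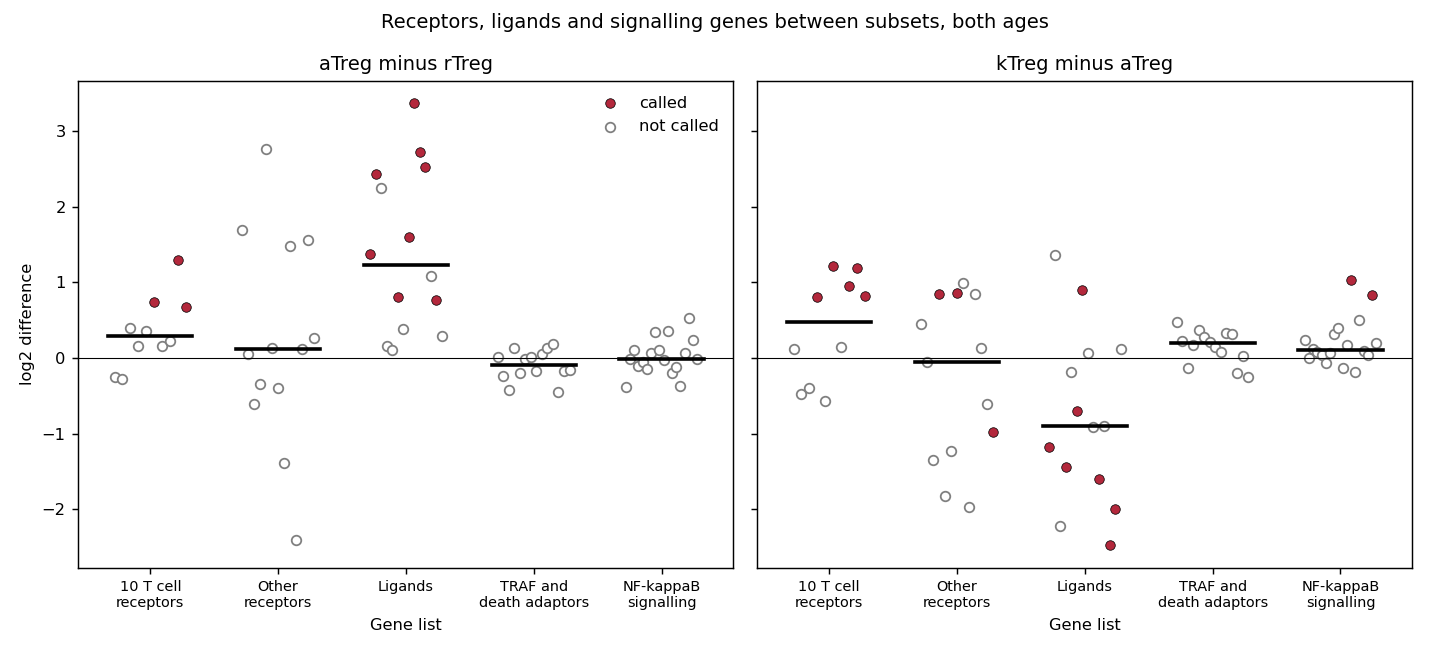
Log2 differences (y axis) of each gene in 5 lists between aTreg and rTreg (left) and kTreg and aTreg (right), both ages together; red points were called, grey ones were not, and black bars are list medians. The ligand median is 1.23 on the left and −0.90 on the right, whereas the median of the 10 T cell receptors is 0.29 and 0.48.

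Whether age changed the receptors was asked within each subset, where 4 old libraries were compared with 4 young ones. In rTreg cells, 1 of the 10 genes was called, Tnfrsf1b, which was higher in old mice (5.83% of all genes called). At that background, a count of 1 is no result about the receptors as a set. In aTreg cells, none was called by limma or edgeR and 1 was called by DESeq2 (2.71% of all genes called by limma). There, 3 of the 10 had an unadjusted p under 0.05. In kTreg cells, none was called by limma, edgeR or DESeq2 (1.26% of all genes called by limma) and 1 had an unadjusted p under 0.05. These shares are of genes called and do not apply to the counts at an unadjusted p. All libraries of one age lay on one side of the other age for 0 of the 10 genes in rTreg, 3 in aTreg (Tnfrsf1a higher, Tnfrsf8 and Cd27 lower in old mice) and 1 in kTreg (Fas, higher in old mice). Among all genes tested, 11.7%, 13.4% and 10.5% had this property in the 3 subsets, so for rTreg and kTreg the receptors' share was at or under the background, and for aTreg it was 3 of 10.

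Tnfrsf1b rose by 0.97 ± 0.26 on the log2 scale from young to old rTreg cells (1.96-fold, adjusted p = 0.0264, limma), from a mean of 5397 ± 1824 to 10451 ± 2669 (SD, n = 4 each). The groups overlapped, because old replicate 3 stood at 6484 and young replicate 2 at 7732. The call was lost on leaving out young rTreg replicate 1 (adjusted p = 0.0550), 3 (0.133) or 4 (0.0571), or old rTreg replicate 1 (0.0603), 2 (0.0607) or 4 (0.0702), and in a fit of the rTreg libraries alone (0.105). Marker genes of other cells moved with it: the macrophage and monocyte sum was 10211 to 26453 in old rTreg, against 576 to 8379 in young rTreg, and the basophil and mast cell sum was 2524 to 6119 against 52.1 to 139.5. Their part in the rise of Tnfrsf1b was not tested.

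In aTreg cells, Tnfrsf8 was 526 ± 175 in young and 192 ± 90.7 in old libraries, a log2 difference of −1.54 ± 0.49 (adjusted p = 0.0998, limma, and 0.0386 by DESeq2). It passed the threshold in a fit of the aTreg libraries alone (0.0461) and without young rTreg replicate 2 (0.0444). Cd27 was 11355 ± 916 in young and 7553 ± 2739 in old aTreg libraries (log2 difference −0.67 ± 0.21, adjusted p = 0.0905, limma). Its lowest value, 3808, came from old aTreg replicate 2, the library with the low Foxp3 value, without which the difference was −0.38 (adjusted p = 0.365), whereas without old aTreg replicate 4 it was −0.85 and called (0.0243). In kTreg cells, the 95% intervals of the old to young differences were −0.60 to 0.20 for Tnfrsf4, −0.41 to 0.28 for Tnfrsf18 and −0.84 to 0.25 for Tnfrsf1b. A 1.5-fold change with age was thus left out for Tnfrsf18 in kTreg cells, but not for the other two.

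**Figure D5:**
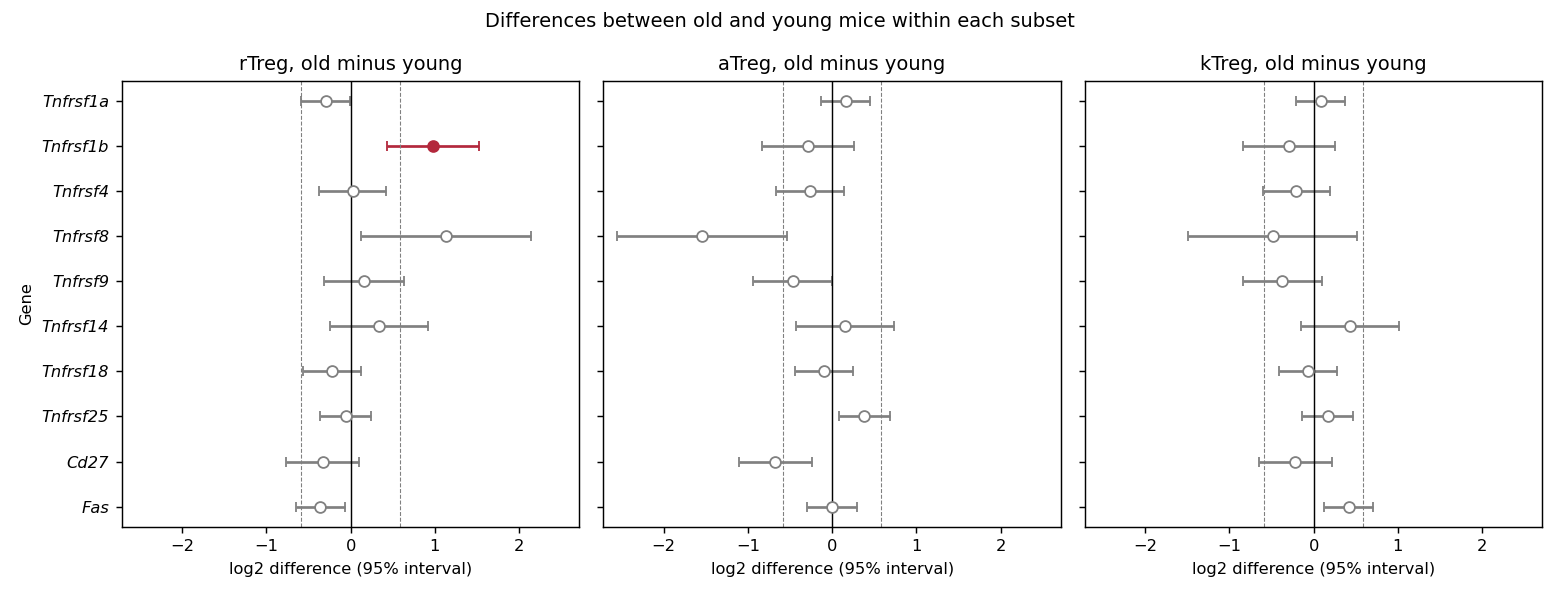
Log2 differences (x axis) between old and young mice for the 10 receptor genes within rTreg, aTreg and kTreg cells, with 95% intervals from limma and dashed lines at the 1.5-fold limits. Tnfrsf1b in rTreg cells, at 0.97, is the only red (called) point.

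The last question was whether the age difference itself depended on the subset, tested as an interaction. Between kTreg and aTreg cells, none of the 10 genes was called by limma, edgeR or DESeq2 (0.156% of all genes called by limma). Of the 10, 0 had an unadjusted p under 0.05, a threshold to which this share does not apply. The kTreg to aTreg differences in young and old mice were 1.23 and 1.22 for Tnfrsf1b, 0.92 and 0.98 for Tnfrsf4, 0.77 and 0.86 for Tnfrsf9, and 0.79 and 0.82 for Tnfrsf18. For Tnfrsf8, also called between these subsets, they were 0.67 and 1.72, and for Fas they were −0.69 and −0.27. The 95% interval of the change between ages was −0.46 to 0.52 for Tnfrsf18, which left out a 1.5-fold change. It was −0.78 to 0.76 for Tnfrsf1b and −0.37 to 2.48 for Tnfrsf8, which did not leave it out.

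Between kTreg and rTreg cells, the age difference of Fas was called (0.77 ± 0.20, adjusted p = 0.0377, limma, background 3.02%): kTreg stood 1.14 below rTreg in young mice and 0.37 below it in old mice on the log2 scale. Over 40 alternatives its adjusted p ran from 0.00835 to 0.0975, and the call was lost without young rTreg replicate 1, 3 or 4, young kTreg replicate 2 or 3, old rTreg replicate 2 or old kTreg replicate 1, 3 or 4, where the difference stood between 0.68 and 0.80. Between aTreg and rTreg cells, the age difference of Tnfrsf8 was called (−2.68 ± 0.69, adjusted p = 0.0497, limma, background 1.56%), since aTreg exceeded rTreg by 2.64 in young mice and by −0.04 in old mice. This call held in only 4 of 24 fits without one library, those without young rTreg replicate 2, young kTreg replicate 4, old rTreg replicate 2 or old aTreg replicate 3, and its adjusted p ran from 0.00887 to 0.138. The interaction of Tnfrsf1b between kTreg and rTreg, −1.27 ± 0.37, missed the threshold (adjusted p = 0.0654, limma), although the 2 differences were 2.60 in young and 1.34 in old mice. Marker genes of other cells also differed in these tests. For aTreg against rTreg, the median age difference was −5.50 for 4 basophil and mast cell genes (3 called lower). It was −2.37 for 4 natural killer cell genes (1 called lower). For kTreg against rTreg, these medians were −2.53 and −0.53, with 0 called. Their part in these results was not tested.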

How the data were processed

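Bulk RNA-seq of 24 splenic Treg libraries was analysed from 1 table of normalized read counts. The authors made low-input polyA libraries and, per the labels' processing notes, used HISAT2 2.2.1, SAMtools 1.13, HTSeq 1.99.2 and DESeq2 1.44.0 with build GRCm39. The deposited values are a signal, reads divided by 1 size factor per library. All of them were whole reads (tolerance 0.01 reads) once multiplied back. Reads on listed genes numbered 15045747 to 29521942 per library. Gene names and positions came from GENCODE M39, in which 17353 of 17464 identifiers were found and 111 were not.

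After removal of genes that did not reach 10 in 4 or more libraries, 16630 were tested with limma 3.58.1 in R 4.3.3 on log2(value + 1), with 1 mean per group over all 24 libraries and Benjamini-Hochberg adjustment. This scale understates changes of low genes. Genes were called at an adjusted p under 0.05 and a fold over 1.5. The contrasts were the 3 pairs of subsets with both ages weighted equally, age within every subset, and the interactions. Differences within 1 age carry no test. Alternatives included edgeR 4.0.16 and DESeq2 1.42.0 on the recovered reads, other scalings, filters and pseudocounts, the mouse as a block, and leaving out libraries. The scripts were tested on simulated data, with changes placed in genes of all levels. Of changes of 1 on the log2 scale, 45% were called for kTreg against aTreg and 35% for age in kTreg. For the age difference of kTreg against aTreg, 11% were called. Of changes of 2, the shares were 63%, 61% and 46% in the same order.

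The text names all 10 receptors, up to 3 genes of each pathway list (the smallest p between kTreg and aTreg among those called, else between kTreg and rTreg) and the genes most correlated with a receptor (r of at least 0.8). The receptors and lists were chosen with earlier results of these data known. Same-numbered libraries of an age were taken to come from the same mouse and were treated as paired. Median correlations of their deviations from the group means were 0.115 (aTreg and kTreg), 0.153 (aTreg and rTreg) and 0.0911 (kTreg and rTreg), against −0.0507, −0.0331 and −0.034 between different mice.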

Additional observations from a re-analysis of the deposited data

Results flagged for a closer look

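In 3 of the 60 sets of 4 libraries formed by a receptor gene and a group, 1 library lay far from the other 3 by Dixon's criterion, and about 3 sets would be reached at the chance rate of 1 in 20. For Tnfrsf1a, young aTreg replicate 1 was lowest at 1025, against 1206 to 1213 in the others. For Tnfrsf1b, old rTreg replicate 3 was lowest at 6484, against 11337 to 12210. For Tnfrsf25, old rTreg replicate 4 was lowest at 2538, against 3155 to 3258.

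For 2 receptor genes, the difference between ages itself differed between subsets by the interaction test of limma. It was −2.68 on the log2 scale for Tnfrsf8 between aTreg and rTreg cells (adjusted p = 0.0497) and 0.77 for Fas between kTreg and rTreg cells (adjusted p = 0.0377). The first was lost in 20 of 24 fits that left out 1 library, and the second in 9 of 24. Marker genes of other cells also differed in these tests, and their part was not tested.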

How the results depend on the processing

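Over 40 alternatives, 3600 values of the 10 receptors were recomputed. Of these, 3518 kept their side of the threshold, 52 lost and 30 gained a call, and 0 calls reversed direction. The 3518 include 71 values that were not called and changed sign. All 6 calls between kTreg and rTreg were kept in 40 of 40 alternatives. With the mouse as a replicate block the numbers of receptors called were 5, 6 and 3 for the subset pairs, and this pairing changed no call. Leaving out 1 library gave 4 to 6 receptors for kTreg against aTreg, 6 for kTreg against rTreg, 2 to 3 for aTreg against rTreg, 0 to 2 for old against young rTreg, 0 to 1 for aTreg and 0 for kTreg, and 0, 0 to 2 and 0 to 2 for the age differences of kTreg against aTreg, kTreg against rTreg and aTreg against rTreg. Old against young rTreg gave 0 with only the groups compared and 2 with an unadjusted p or without young mouse 2. Old against young aTreg gave 1 with only the groups compared, 2 with an unadjusted p and 1 by DESeq2. The age difference of kTreg against rTreg gave 3 with an unadjusted p, 2 by DESeq2, without both libraries that stand apart or without young mouse 2, and 0 without old mouse 2 or young mouse 4. The age difference of aTreg against rTreg gave 0 with a pseudocount of 0.5, no filter, only the groups compared, TMM factors, edgeR, without both libraries that stand apart, without old mouse 2 or without young mouse 4, and 2 with an unadjusted p or by DESeq2. The causes were not tested. Leaving out both libraries that stand apart or single mice was chosen after seeing the data. Tnfrsf8 and Tnfrsf14 rest on fewer reads than the other receptors.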

Other observations

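Over the 24 libraries, the gene most like Tnfrsf1b was Vps54 (Pearson r = 0.965 on the log2 scale), followed by Rbl2 (0.953). Sp110 (0.945) and Ms4a6b (0.907) were most like Fas, and Tspan32 (0.880) and Ephx1 (0.860) most like Cd27. For Tnfrsf1a it was Ado (0.868), and for Tnfrsf14, Gm11454 (0.823) and Il18bp (0.807). The libraries share mice and subsets, so these values are descriptions.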
